A study of Mus musculus with 10 samples.

Results

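The genes described here are 8 carriers that move calcium ions out of the cytosol: the sodium-calcium exchangers Slc8a1, Slc8a2 and Slc8a3, the potassium-dependent sodium-calcium exchanger Slc24a3, the plasma membrane calcium pumps Atp2b1, Atp2b2 and Atp2b4, and the reticulum calcium pump Atp2a2. They are 8 of the 23358 rows of the gene count table and were chosen by name, as a family, with earlier results of these libraries known, among them the fitted difference of Slc8a3 between inhibitor and vehicle. Their differences between treatments and days are therefore given as a description: calls of a fit across all genes are stated, with no p-value and with nothing read from them. The question put to them is which exporter maturing osteoblasts switch on.

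MC3T3 is a mouse calvarial pre-osteoblast line, and all groups were grown in osteogenic medium, with beta glycerol phosphate at 4 mM and ascorbic acid at 50 µg/ml. The cells received vehicle or 5 µM GSK126, which blocks EZH2, the enzyme that places the repressive mark H3K27me3 on chromatin. GSK126 was present from the start, was renewed after 3 days and was taken away on day 6, so that the day 10 libraries follow its removal. For RNA there was 1 library for each treatment on each of days 3, 6 and 10. H3K27me3 and its input were sequenced 24 hours after the first dose, again with 1 library of each for a treatment.

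A cell that lays down bone mineral handles large amounts of calcium and has to keep its cytosolic calcium low. Pumps of the Atp2b family use ATP to export calcium with high affinity, whereas exchangers of the Slc8 family use the sodium gradient to export larger amounts with lower affinity, and Slc24 exchangers also draw on the potassium gradient. The Atp2a pumps do not export calcium from the cell but return it to the endoplasmic reticulum.

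Each RNA library held 97291878 to 111537936 counts, every count was even (0 odd values), and a fragment is taken below as 2 counts. With 1 library per group there is no spread between replicates within a day. Ranges in parentheses are 95% intervals of counting error on fragments, and standard errors (SE) come from an edgeR fit over the 6 libraries. Such an SE is not a spread of replicates, since it takes in treatment differences that varied between days. All 9 osteoblast markers listed were detected in every library, with summed levels of 26134 to 40359 CPM (counts scaled to TMM-normalized library size). Most of this sum came from Col1a1, with 23743 CPM in vehicle on day 10 and 36243.5 with GSK126 on day 6. The sum therefore mainly follows Col1a1. Bglap, a less abundant marker of the 9, had 80, 368 and 2126 counts under vehicle and 324, 7600 and 18554 under GSK126 on days 3, 6 and 10. The other markers did not all follow Bglap. Runx2 had 28350, 29498 and 22880 counts under vehicle and 39952, 33292 and 34062 under GSK126. Spp1 had 32178, 32556 and 118748 counts under vehicle and 31692, 93402 and 124880 under GSK126. In such bulk libraries, fewer cells of a type and less RNA per cell cannot be told apart.

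The gene with the largest difference of the 8, both over time and between treatments, was Slc8a3, which encodes the exchanger NCX3, known from skeletal muscle and brain. On the mm10 build its row spans chr12:81197915-81333180. It had 116 counts in vehicle on day 3, 442 on day 6 and 870 on day 10. With GSK126 it had 624, 6052 and 8798 counts on the same days. The lowest library was vehicle on day 3, the 2 highest were GSK126 on days 6 and 10, and on each day the GSK126 library was above the vehicle library. The treatment groups overlapped across days, because GSK126 on day 3 lay between vehicle on day 6 and vehicle on day 10.

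In CPM, Slc8a3 stood at 1.00, 4.31 and 8.99 under vehicle and at 5.48, 61.1 and 93.3 with GSK126 on days 3, 6 and 10. The ratio of CPM between GSK126 and vehicle was 5.45 on day 3, 14.2 on day 6 and 10.4 on day 10. On the log2 scale with a prior count of 2, these ratios were 2.42 (2.04 to 2.88), 3.82 (3.63 to 4.03) and 3.37 (3.23 to 3.52). The ratio was thus smallest on day 3, and it was above 10 on day 10, after the inhibitor had been removed.

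The level of Slc8a3 also differed over time without the inhibitor. Between days 3 and 10 its CPM was 8.95 times higher in vehicle, a log2 ratio of 3.14 (2.76 to 3.58), and 17.0 times higher with GSK126, a log2 ratio of 4.09 (3.92 to 4.26). Most of the difference with GSK126 lay between days 3 and 6, where the log2 ratio was 3.48 (3.31 to 3.65), against 0.61 (0.54 to 0.68) between days 6 and 10. In vehicle the same steps were 2.08 (1.68 to 2.54) and 1.06 (0.82 to 1.30). GSK126 cells on day 6 already held 6.80 times the CPM of vehicle cells on day 10, while GSK126 cells on day 3 held 0.609 times that level.

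RPKM, the authors' value per kilobase of listed length and of sequencing depth, allows levels of different genes to be compared. Slc8a3 stood at 0.162, 0.666 and 1.42 RPKM under vehicle and at 0.888, 9.44 and 14.1 RPKM with GSK126. Among the genes with a count above 0 in a library, that placed it at percentile 23.5 in vehicle on day 3 and 35.8 on day 10, and at percentile 77.1 with GSK126 on day 10. In vehicle, Slc8a3 therefore stayed among the lower detected genes throughout.

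**Figure D1:**
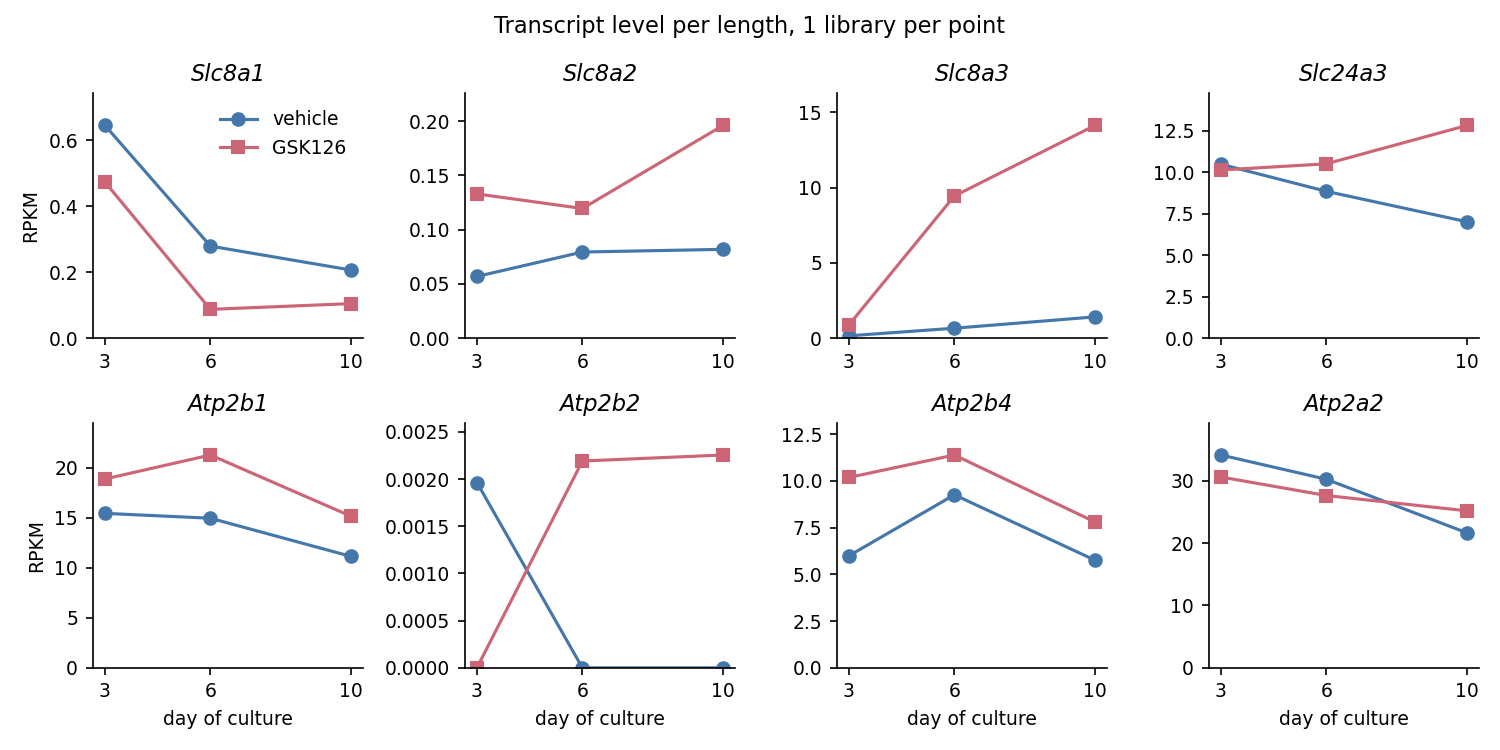
RPKM of the 8 genes (vertical axis, from 0, a separate scale for each gene) by day of culture (horizontal axis) in vehicle (blue circles) and GSK126 (red squares), 1 library per point and no error bars. Slc8a3 reaches 14.1 RPKM with GSK126 on day 10 against 1.42 in vehicle, Slc8a1 is lower on days 6 and 10 than on day 3, and the points of Atp2b2 stand for at most 2 counts.

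Slc8a1, which encodes NCX1, the exchanger best known from heart muscle, went the other way. Its row spans chr17:81373105-81738377. It had 1694, 680 and 466 counts in vehicle on days 3, 6 and 10, and 1220, 206 and 240 with GSK126. The highest library was vehicle on day 3, and on each day the GSK126 library was below the vehicle library. The log2 ratio of GSK126 to vehicle was -0.45 (-0.61 to -0.30) on day 3, -1.66 (-2.004 to -1.35) on day 6 and -0.91 (-1.25 to -0.60) on day 10.

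From day 3 to day 10 the log2 ratio of Slc8a1 was -1.60 (-1.82 to -1.40) in vehicle and -2.06 (-2.37 to -1.79) with GSK126. With GSK126 that low level was present by day 6, and the ratio of day 10 to day 6 was 0.29, with an interval that spans 0 (-0.10 to 0.68).

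Slc8a2, which encodes NCX2, an exchanger of the brain, was close to the detection limit. It lies at chr7:16130300-16160511 and had 34, 44 and 42 counts under vehicle and 78, 64 and 102 under GSK126. All 3 GSK126 libraries were above all 3 vehicle libraries. The log2 ratio was 1.17 (0.36 to 2.13) on day 3 and 1.28 (0.56 to 2.13) on day 10, and on day 6 the interval of 0.57 spans 0 (-0.24 to 1.44).

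Within the Slc8 family, per listed length, the main member in vehicle was therefore not the same early and late. Slc8a1 made up 74.7% of the summed RPKM of the 3 exchangers in vehicle on day 3, and Slc8a3 18.8%. On day 10 in vehicle the shares were 12.1% for Slc8a1 and 83.1% for Slc8a3. With GSK126, Slc8a3 held 59.4% on day 3, 97.9% on day 6 and 97.9% on day 10. The summed RPKM of the family was 0.864, 1.03 and 1.71 in vehicle and 1.49, 9.65 and 14.4 with GSK126.

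The point at which Slc8a3 passes Slc8a1 depends on the length used. Slc8a1 has a listed length of 18599 bases and Slc8a3 of 5068 bases. By counts, with no length, Slc8a1 was still ahead in vehicle on day 6, with 58.3% of the family, and with GSK126 on day 3, with 63.5%, whereas RPKM put Slc8a3 ahead in both libraries. Counts and RPKM both put Slc8a3 ahead in vehicle on day 10 and with GSK126 on days 6 and 10.

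Slc24a3 encodes NCKX3, which exports calcium and potassium in exchange for sodium. It lies at chr2:145242611-145641939, and 2 other listed genes overlap it, Gm14092 with 4 to 46 counts and Mir3110 with 0. Slc24a3 had 5062, 3962 and 2908 counts in vehicle on days 3, 6 and 10, and 4804, 4546 and 5390 with GSK126. It was lower on each later day in vehicle and higher on each later day with GSK126 after scaling, and the treatment groups overlapped.

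The log2 ratio of Slc24a3 from day 3 to day 10 was -0.55 (-0.64 to -0.45) in vehicle and 0.44 (0.36 to 0.52) with GSK126. Between treatments it was -0.06 on day 3, with an interval that spans 0 (-0.14 to 0.02), 0.25 (0.16 to 0.34) on day 6 and 0.93 (0.84 to 1.02) on day 10. Its RPKM was 10.5, 8.85 and 7.01 in vehicle and 10.1, 10.5 and 12.8 with GSK126. In vehicle on day 10 this gene thus stood well above Slc8a3 per length, whereas with GSK126 on day 10 it was slightly below it.

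Of the plasma membrane pumps, Atp2b1, the widely expressed PMCA1, was the most abundant in every library. It lies at chr10:98915152-99026143 and had 15526, 13942 and 9612 counts under vehicle and 18636, 19168 and 13268 under GSK126. After scaling to CPM all 3 GSK126 libraries were above all 3 vehicle libraries, whereas in counts and narrowly in RPKM the groups overlapped across days. The log2 ratio was 0.28 (0.24 to 0.33), 0.51 (0.47 to 0.56) and 0.50 (0.45 to 0.56) on days 3, 6 and 10.

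Atp2b4, which encodes PMCA4, lies at chr1:133702674-133753747. It had 7014, 10044 and 5784 counts under vehicle and 11702, 11940 and 7952 under GSK126. Both treatments had the highest count on day 6, and the groups overlapped across days. The log2 ratio between treatments was 0.76 (0.70 to 0.82) on day 3, 0.30 (0.25 to 0.36) on day 6 and 0.50 (0.43 to 0.57) on day 10.

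Atp2b2, which encodes PMCA2, the pump of hair cells and neurons, was almost without counts. It lies at chr6:113745668-114042080 and had 2, 0 and 0 counts under vehicle and 0, 2 and 2 under GSK126. A count of 0 allows up to 3 fragments, or 0.0527 to 0.0620 CPM in these libraries. It was the member of the 8 that the filter on low counts removed.

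Atp2a2 encodes SERCA2, the housekeeping pump of the reticulum, and had the highest RPKM of the 8 genes in every library. It lies at chr5:122453513-122502225 and had 27578, 22656 and 15012 counts under vehicle and 24276, 20006 and 17714 under GSK126. Its RPKM was 34.1, 30.2 and 21.6 in vehicle and 30.6, 27.6 and 25.2 with GSK126. The level was lower on each later day in both treatments. The log2 ratio between treatments was -0.17 (-0.20 to -0.13) on day 3, -0.13 (-0.17 to -0.09) on day 6 and 0.28 (0.23 to 0.32) on day 10.

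**Figure D2:**
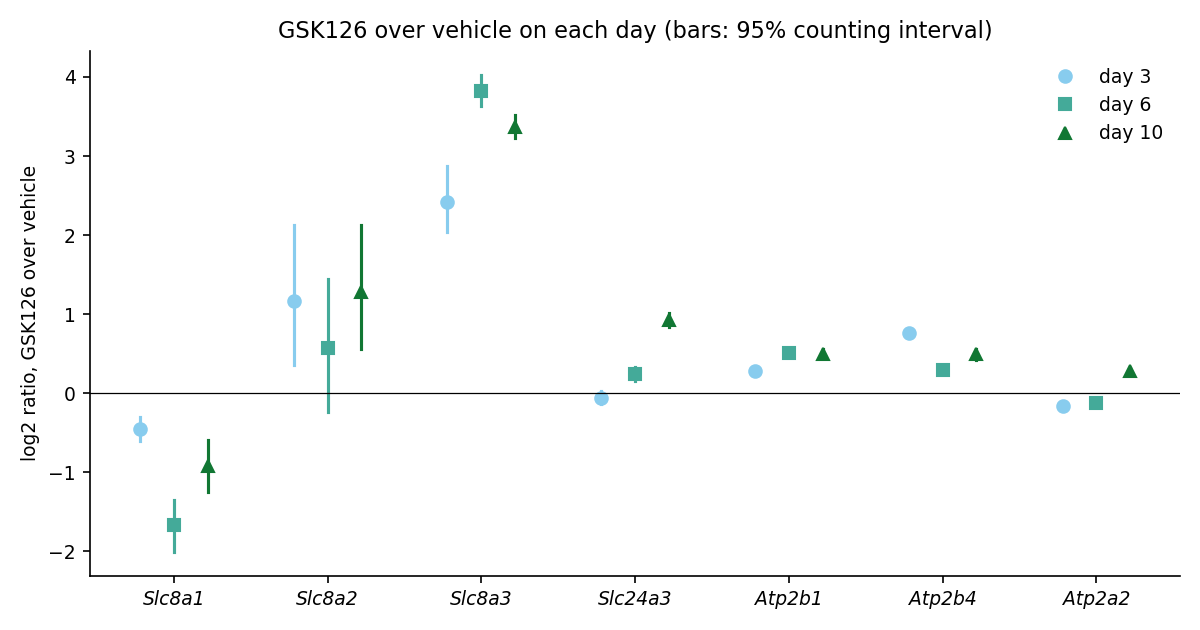
Log2 ratio of CPM, GSK126 over vehicle, on each day (vertical axis) for the 7 genes with counts in every library (horizontal axis), 1 pair of libraries per point, with bars for the 95% counting interval. Slc8a3 lies at 2.42, 3.82 and 3.37, Slc8a1 is below 0 on all 3 days, and the pumps lie between -0.17 and 0.76.

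The share of each carrier among the 7 that work at the plasma membrane, in RPKM, shows how large Slc8a3 became beside the pumps. Slc8a3 made up 0.495%, 1.96% and 5.53% of the summed RPKM in vehicle on days 3, 6 and 10, and 2.18%, 17.9% and 28.1% with GSK126. Atp2b1 held 47.1%, 43.9% and 43.5% in vehicle, and 46.4%, 40.3% and 30.2% with GSK126. Pumps and Slc24a3 thus made up most of the exporter transcript in every library of both treatments. With GSK126 on day 10, Slc8a3 was close to Atp2b1, at 14.1 against 15.1 RPKM, and above Slc24a3 with 25.5% and Atp2b4 with 15.5%.

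The summed RPKM of the 7 was 32.8, 34.1 and 25.6 in vehicle and 40.7, 52.8 and 50.2 with GSK126. Of this, the pumps came to 21.4, 24.2 and 16.9 under vehicle and to 29.0, 32.6 and 22.9 under GSK126. By counts with no length, the share of Slc8a3 was 0.394%, 1.52% and 4.42% in vehicle and 1.68%, 14.4% and 24.6% with GSK126.

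**Figure D3:**
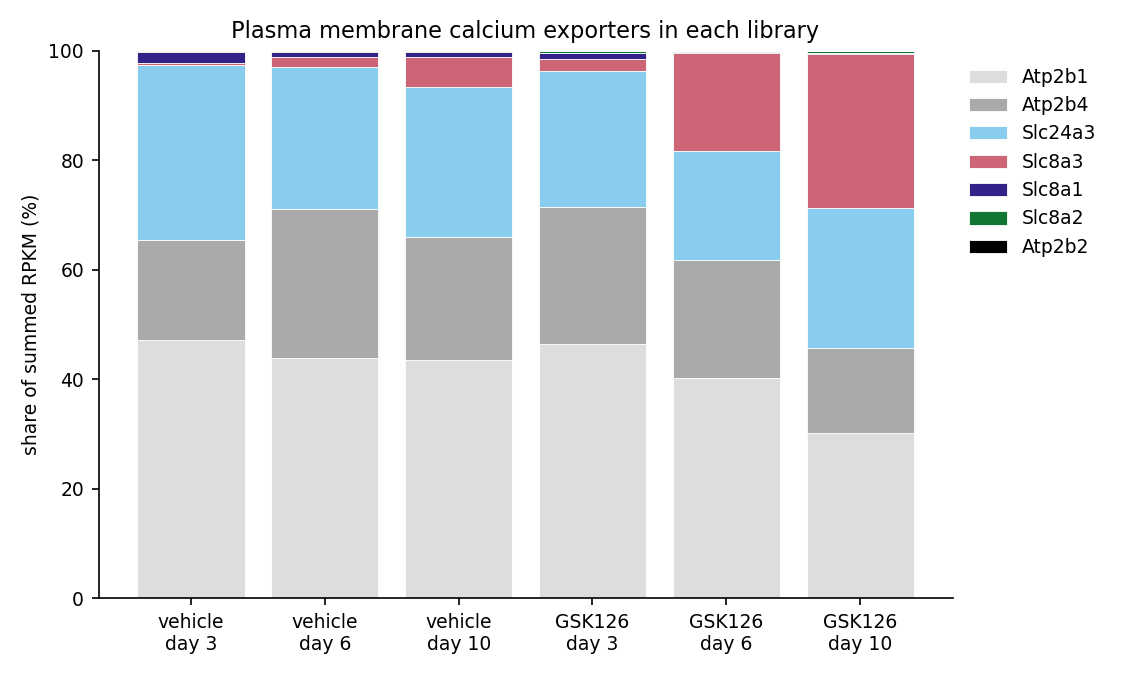
Share of each plasma membrane carrier in the summed RPKM of the 7 (stacked bars, vertical axis in percent) in the 6 libraries (horizontal axis), 1 library per bar. The red segment, Slc8a3, grows from 0.495% in vehicle on day 3 to 5.53% in vehicle on day 10 and 28.1% with GSK126 on day 10.

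The fit over the 6 libraries (edgeR quasi-likelihood F test with day and treatment as terms, calls at a Benjamini-Hochberg adjusted p below 0.05 over 14344 genes) covered 7 of the 8 genes. For GSK126 against vehicle, 1 member was called higher, Slc8a3, and 0 lower, where 1.01% of all genes tested were called higher and 0.272% lower. For day 10 against day 3, 1 was called higher, Slc8a3, and 1 lower, Slc8a1, where 14.1% of all genes were called higher and 12.5% lower. For day 6 against day 3, 1 was called higher, Slc8a3, and 0 lower, where 0.516% and 0.237% of all genes were called. Since these contrasts were known when the members were chosen, nothing is read from the counts. With scaling by library size alone, 35.9% of the day 10 calls were higher (53.1% with TMM) and 50.7% of the day 6 calls (68.5% with TMM), and the median difference of all genes was then -0.11 and -0.10.

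Fitted over the 3 days, Slc8a3 was higher with GSK126 by 3.27 on the log2 scale (SE 0.27, n = 3 pairs of libraries, 9.65-fold), and on day 10 against day 3 by 3.67 (SE 0.34, n = 2 pairs, 12.7-fold). Its call for GSK126 was lost without day 10, at 3.22, and without the day term, at 3.48. Its call for day 6 (2.87, SE 0.33) was lost without day 10, at 2.89. Slc8a1 stood at -0.999 (SE 0.24) for GSK126 and at -1.86 (SE 0.30) for day 10. For GSK126, Atp2b1 stood at 0.43 (SE 0.08), Atp2b4 at 0.52 (SE 0.10), Slc24a3 at 0.37 (SE 0.19) and Atp2a2 at -0.01 (SE 0.11), none of these nor Slc8a1 called by edgeR. The median of the 7 was 0.43 for GSK126, -0.16 for day 10 and 0.13 for day 6.

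The repressive mark that GSK126 targets was examined at the same genes in the authors' island lists, the stretches in which their caller found H3K27me3 above input. The vehicle list has 34498 islands with a median length of 3400 bases, and the GSK126 list 24947 with a median of 5600 bases. The median ratio of ChIP to input was 2.48 in the vehicle list and 2.04 in the GSK126 list. Each list rests on 1 ChIP and 1 input library, so that islands of the lists cannot be compared with a test. Ratios of ChIP to input are the authors' own. Of 15716 genes whose start could be placed, 23.8% had an island over the gene or the 5 kb before it in vehicle and 20.1% with GSK126.

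At Slc8a3 no island lay within 5 kb of the start in either list. Of all 15716 genes, 19.4% had an island within 5 kb of the start in vehicle and 15.5% with GSK126. On chromosome 12, where Slc8a3 lies, these shares were 9.47% and 5.49% of 528 genes, so that most genes there had none. At Slc8a3 the vehicle list had 2 islands, 113 kb and 120 kb into the gene, with ratios of 2.69 and 3.02, the latter from 36 ChIP and 20 input reads. The GSK126 list had 1 island, 38.4 kb into the gene, with a ratio of 2.24 from 62 ChIP and 46 input reads. None of the 3 passed the stricter limit of an adjusted p below 1e-10 with a ratio of 2 or more. The islands of vehicle and GSK126 did not overlap each other.

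Slc8a1, which was lower with GSK126, had 8 islands in each list, covering 28.4 kb in vehicle and 37.4 kb with GSK126. None lay over the start base. The vehicle islands lay between 1.98 kb and 67.6 kb into a gene that spans 365 kb, and 7 of the 8 GSK126 islands between 1.18 kb and 68.0 kb, with the other before the start. Their median ratio was 2.26 in vehicle and 1.84 with GSK126, against 2.48 and 2.04 over all islands of the lists.

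Atp2b2, almost without counts, had 21 islands in vehicle and 19 with GSK126, covering 120 kb and 159 kb. These spread over most of the gene, as the map of islands by distance from the start shows, with median ratios of 1.999 and 2.03. Chromosome 6, on which it lies, held 4155 vehicle and 3505 GSK126 islands, against 560 and 277 on chromosome 12. Slc8a2, Slc24a3, Atp2b1, Atp2b4 and Atp2a2 had 0 islands in both lists, and the nearest island to any of these in vehicle was 27.5 kb from Atp2b4.

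**Figure D4:**
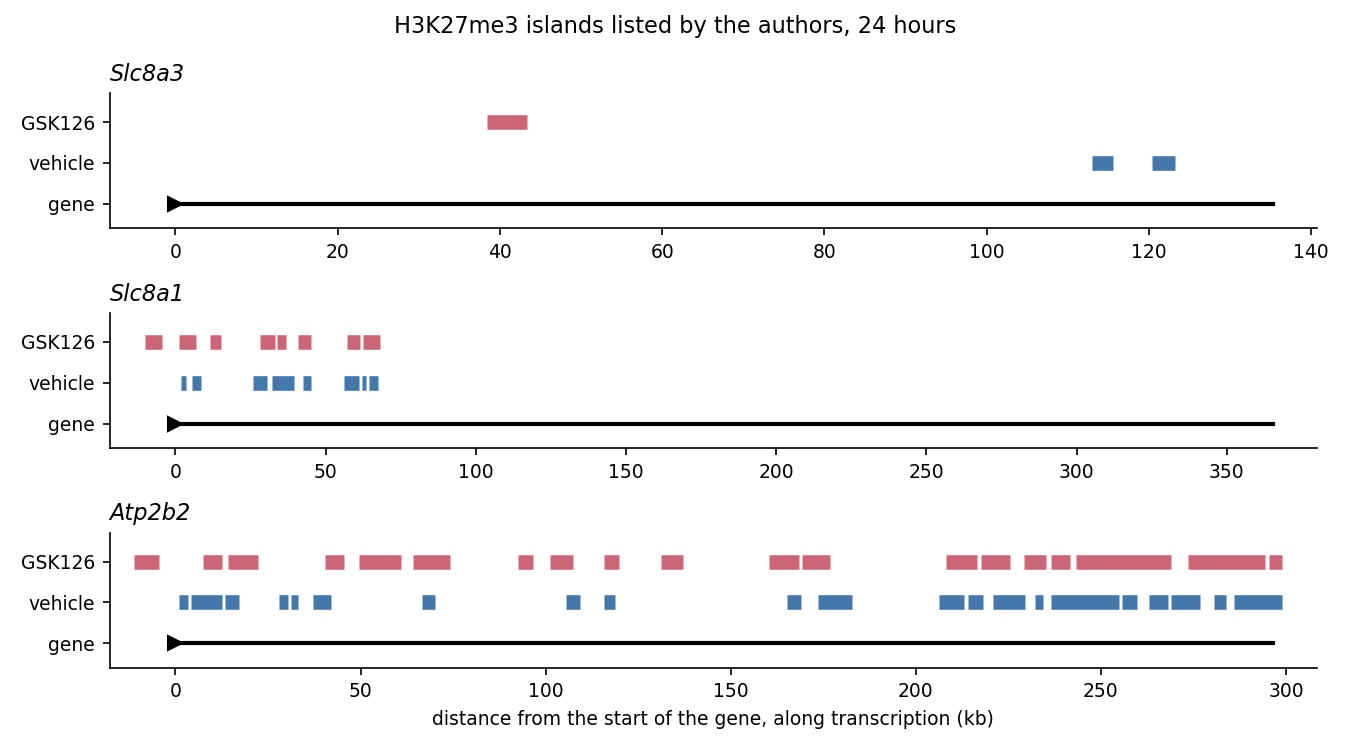
Islands of H3K27me3 listed by the authors 24 hours after the first dose in vehicle (blue) and GSK126 (red), as distance in kb from the start of the gene along transcription (horizontal axis), for the 3 genes with islands, with the gene as a black line. The islands of Slc8a1 lie in the first 68.0 kb or before the start, those of Atp2b2 over most of the gene, and none lies within 5 kb of the start of Slc8a3.

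The stretches before the starts are shown for the genes that differed most and for the start that an island covered, since CG pairs mark the promoters that Polycomb complexes often occupy in mouse cells. The 250 bases before the start are from RefSeq on GRCm38.p6, read 5′ to 3′ on the strand of the gene, with each CG in capitals. Slc8a1 was added after its values were seen. The start of Slc8a3 (chr12:81333181-81333430, minus strand) and that of Slc8a1 (chr17:81738388-81738637, minus strand) had no island over them. The internal start of Atp2b2 (chr6:113934682-113934931, minus strand) lay under 1 island in each list.
Slc8a3: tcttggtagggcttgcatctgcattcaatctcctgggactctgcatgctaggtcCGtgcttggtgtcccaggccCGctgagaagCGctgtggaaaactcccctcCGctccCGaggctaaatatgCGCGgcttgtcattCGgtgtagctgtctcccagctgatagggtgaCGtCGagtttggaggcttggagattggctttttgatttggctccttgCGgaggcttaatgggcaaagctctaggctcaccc
Slc8a1: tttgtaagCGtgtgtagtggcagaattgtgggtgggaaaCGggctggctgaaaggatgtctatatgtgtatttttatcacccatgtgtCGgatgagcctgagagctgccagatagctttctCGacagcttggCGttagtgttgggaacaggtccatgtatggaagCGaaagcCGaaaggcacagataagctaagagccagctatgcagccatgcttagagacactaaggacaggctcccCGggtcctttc
Atp2b2, internal start: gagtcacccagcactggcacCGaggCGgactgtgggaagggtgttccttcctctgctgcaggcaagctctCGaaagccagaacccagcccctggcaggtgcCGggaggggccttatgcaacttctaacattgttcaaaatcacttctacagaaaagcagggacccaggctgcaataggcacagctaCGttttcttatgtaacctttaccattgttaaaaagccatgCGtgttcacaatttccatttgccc
These windows held 11, 8 and 6 CG pairs.

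Over 300 bases, from 250 before to 50 after the start, 7 of the 8 genes matched 11 promoters, and Atp2a2 is named only. The median of all 32851 promoters in the table was 7 CG pairs. Slc8a3 had 18, Slc8a1 had 9 and Slc8a2 had 10. Atp2b1 had 45 and 54 at its 2 starts, and Atp2b4 had 4. The core motif TGTGGT, searched on both strands as the letters bound by RUNX factors, which direct osteoblast differentiation, was in 16.8% of all promoters and in 0 of the 11, and it cannot overlap a CG pair.

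Other genes of calcium handling were described from 7 lists with 88 genes in the table, of which 70 were tested. These lists were chosen with earlier results of these libraries known, and named genes are mainly those called. Their differences are therefore a description, and rose and fell mean called higher and lower by edgeR. For GSK126 against vehicle, edgeR called 0 of the 70 higher and 0 lower, and 18 had an unadjusted p below 0.05. DESeq2 called 6 of the 70 higher and 6 lower. Of all 14344 genes tested, edgeR called 1.01% higher and 0.272% lower, and 2813 had an unadjusted p below 0.05. DESeq2 called 688 of all genes higher and 635 lower. In the edgeR fit 48 of the 70 were above 0, with a median of 0.11, against -0.001 over all genes. All 6 tested genes of the sodium gradient, which the exchangers use, were above 0, with a median of 0.59, and 0 of them passed. All 8 tested calcium-binding genes were above 0 as well, with a median of 0.17.

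For day 10 against day 3, 11 of the 70 rose and 8 fell by edgeR, or 15.7% and 11.4%, where 14.1% of all genes tested were called higher and 12.5% lower. The shares of the lists together were thus near those of all genes, and the counts of single lists below stand against the same background of 14.1% and 12.5%. Fxyd1, phospholemman, a small membrane protein that regulates the sodium pump and in heart muscle the exchanger NCX1, had 742, 1570 and 3352 counts under vehicle and 1100, 2452 and 3710 under GSK126. It rose by 2.23 (SE 0.16), and it was the sole list gene that rose by day 6 in edgeR, by 1.31 (SE 0.15). On day 6 DESeq2 called 8 of the 70 list genes higher and 0 lower, against 998 higher and 744 lower of all 14344 genes. Bsg, the pump partner basigin, rose by 0.56, and Calm2, calmodulin, which activates the Atp2b pumps, rose by 0.63. Of the 8 tested partners 3 rose and 0 fell.

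Of the 17 tested entry channels, 3 rose and 1 fell on day 10. Cacna1h, a T-type calcium channel, rose by 1.64 (SE 0.24), from 106 to 308 counts in vehicle. Cacna1a, a P/Q-type channel, rose by 1.01 (SE 0.13), P2rx4, a channel opened by ATP, rose by 0.54, and Trpv2 fell by 0.63. The most abundant channel was Cacna1g, another T-type channel, with 37122, 48024 and 28218 counts under vehicle and 36198, 22044 and 11518 under GSK126. Its fitted difference for GSK126 was -0.79 (SE 0.25, edgeR adjusted p = 0.175).

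Of the 8 tested calcium-binding genes, 3 fell and 1 rose by day 10. Calr, calreticulin, fell by 0.65, Canx, calnexin, by 0.70 and Hspa5, the chaperone BiP, by 0.62, whereas Rcn3, reticulocalbin 3, rose by 0.51. Hspa5 and Canx are chaperones as well as calcium binders. Among 13 tested genes of store release and refilling, 3 fell: Stim2, a store sensor, by 0.51, Itpr2, an IP3 receptor, by 0.51, and the lysosomal channel Tpcn2 by 0.43. Tmco1, which lets calcium leak from overfilled stores, rose by 0.66.

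Among 9 other exchangers and pumps tested, Tmem165, a Golgi cation transporter, rose by 0.33 and Atp2c1, the Golgi calcium pump, fell by 0.40 on day 10. Slc24a6, the older symbol of the mitochondrial exchanger Slc8b1, stood at 3.92, 4.82 and 4.84 RPKM in vehicle and 3.01, 3.70 and 3.44 with GSK126. Fxyd5 was the sole call among 6 sodium gradient genes and rose by 0.59. With scaling by library size alone, 9 list genes were higher and 10 lower on day 10, 17 of the 19 calls remained, 0 changed sign, and Tmem165 was among the calls lost. Without day 6 the calls of Atp2c1, Itpr2, Tpcn2 and Tmem165 were lost, and with no filter on low counts that of Itpr2.

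**Figure D5:**
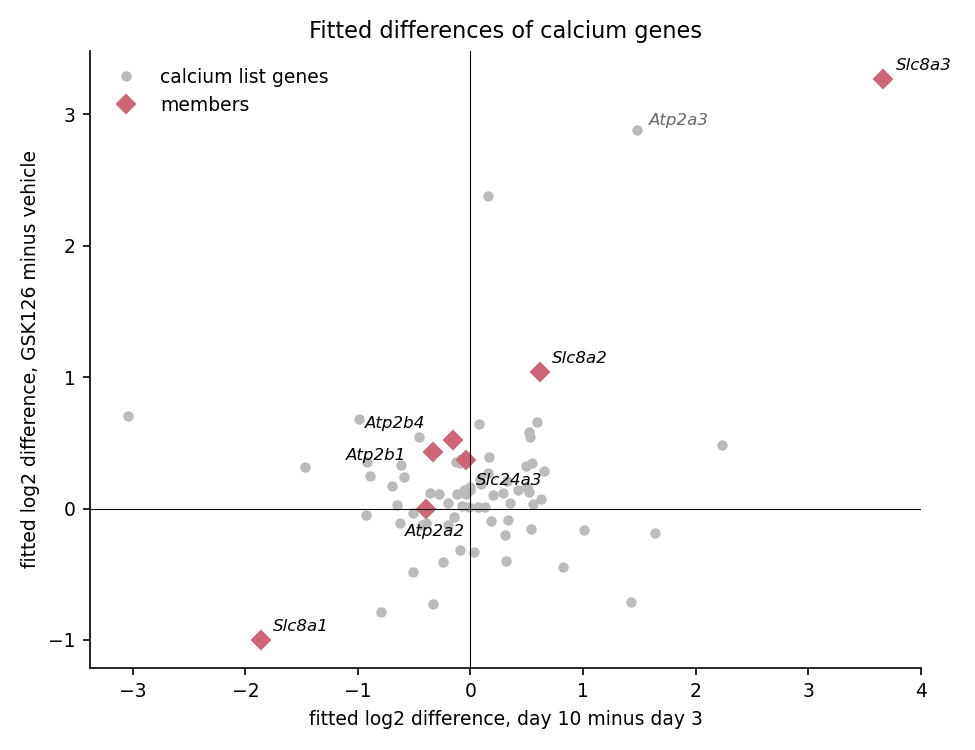
Fitted log2 difference for day 10 against day 3 (horizontal axis) and for GSK126 against vehicle (vertical axis) from the fit over 6 libraries, for the 7 tested members (red diamonds) and the tested genes of the 7 calcium lists (grey circles). Slc8a3 lies at 3.67 and 3.27, and Slc8a1 at -1.86 and -0.999.

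Among 605 other genes with a mean of at least 1 CPM and a log2 range of at least 2, those most like Slc8a3 over the 6 libraries by Pearson's r of log2 CPM were Stab1, a scavenger receptor (0.997), Ncf1, an NADPH oxidase subunit (0.995), Sncaip, synphilin-1 (0.995), Grhl3, a grainyhead transcription factor (0.995), and Tnfrsf11b, osteoprotegerin (0.994). Tnfrsf11b had 6476, 10620 and 15818 counts under vehicle and 17836, 48790 and 63224 under GSK126. By rank, 27 genes shared the exact order of Slc8a3, 3 of the 5 among them. Most like Slc8a1 were Nrg1, neuregulin 1 (0.988), 2610203C20Rik (0.983) and Pcyt1b, an enzyme of phosphatidylcholine synthesis (0.982), and by rank 0 of these were among the first 3. These points share libraries and scaling, and the order is a description.

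Since Slc8a3 is known from muscle and brain, markers of other cells were read in the same libraries. Muscle markers summed to 3.26 to 6.97 CPM, with Myod1 and Myh6 at 0 in every library. Neuron markers summed to 5.85, 13.3 and 23.2 CPM in vehicle and 13.2, 47.0 and 110.5 CPM with GSK126, nearly all of it from Tubb3, a tubulin, with 670, 1360 and 2242 counts under vehicle and 1488, 4634 and 10404 under GSK126. The other neuron markers in the table, Rbfox3, Snap25 and Syt1, had 0 to 12 counts. Osteoclast markers summed to 126 to 418 CPM, with Calcr at 0 and nearly all of the sum from Ctsk. Osteocyte markers, of cells that osteoblasts become in bone, summed to 6.88 to 28.2 CPM, highest with GSK126 on day 6. Dmp1 gave 18.8 CPM of that highest sum, and Sost and Fgf23 had 0 to 2 counts. On day 10 Dmp1 had 660 counts in vehicle and 578 with GSK126, Mepe 86 and 48, and Phex 538 and 868. Tubb3 was thus high in the same libraries as Slc8a3, and its part in the result was not tested.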

How the data were processed

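Samples were read from the labels: 6 RNA libraries (vehicle or GSK126 on days 3, 6 and 10) and 4 ChIP or input libraries, 1 per group. The submitters' processing notes list TopHat2 2.0.6 and HTSeq 0.5.3p9 next to BWA 0.5.9, SICER 1.1, CASAVA 1.9 and the build mm10. Not given in the sources used here are the annotation, how HTSeq counted and with which settings SICER ran. The RNA kit, per the labels, was TruSeq v2 mRNA, which does not mark strand. The deposited counts are whole numbers per gene, all even, with no normalization. The deposited RPKM values divide the count by the listed length and by 1 total per library. The deposited island lists give read numbers, a p-value and a ratio of ChIP to input, with 1 scaling constant per list.

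Counts were fitted with edgeR 4.0.16 in R 4.3.3 (TMM, filterByExpr, quasi-likelihood F test, day and treatment as terms, 2 residual degrees of freedom), which was tested on simulated data. An SE is the difference divided by the square root of F, with a spread partly borrowed from other genes. Nothing in the labels says that libraries came from separate cultures, so p-values measure the spread between these libraries only. With 1 library per treatment and day, that spread is the departure from a treatment difference shared by all days. An SE or a missed call therefore also reflects a treatment difference that varied between days. Ratios of 2 libraries used a prior count of 2 and exact binomial 95% intervals, which cover counting error only. The alternatives were DESeq2 1.42.0, other scalings and filters, halved counts, no Rn45s, no day term and each day left out. Members and lists were chosen with earlier results of these data known. Named list genes were those called in a fit (at most 6 per list and fit) and the most abundant of each list. Of the rows, 69 share a name, none of them a member. The result of 1 calcium list is not reported here.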

Additional observations from a re-analysis of the deposited data

Results flagged for a closer look

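Slc24a3 moved in opposite directions over time in the treatments. Its log2 ratio was -0.18 in vehicle and 0.12 with GSK126 between days 3 and 6, -0.36 and 0.32 between days 6 and 10, and -0.55 and 0.44 between days 3 and 10. Atp2a2 was lower with GSK126 on days 3 and 6, with log2 ratios of -0.17 and -0.13, and higher on day 10, with 0.28. Each value is from 1 pair of libraries, and the differences were not tested.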

How the results depend on the processing

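Over 168 alternative fits of the members' differences, 155 kept their direction and side of the threshold, 8 passed it newly (6 with DESeq2, among them Slc8a1, Atp2b1 and Atp2b4 for GSK126, and 2 with library size alone), 3 no longer passed and 2 reversed. Most of the 155 were differences called neither in the main fit nor in the alternative, so that number says little about the called ones. The reversals were Atp2a2 for GSK126, at 0.080 without day 3 and 0.052 without day 6, with -0.15 to 0.080 over the fits that leave out a day. Slc8a3 for GSK126 lost its call with no day term (3.48) and without day 10, with 2.97 to 3.60 over the fits that leave out a day, and for day 6 it lost its call without day 10 (2.89). All 7 alternatives kept the call of Slc8a3 and of Slc8a1 for day 10. For GSK126 against vehicle, 184 genes were called in all, 1323 with DESeq2, 0 with edgeR and no day term, where 1046 had an unadjusted p below 0.05, and 4 to 308 with a day left out, fewest without day 10, 19 without day 6 and most without day 3. For day 6, 108 genes were called, 1742 with DESeq2. Of the calcium lists, GSK126 calls were 0, 12 with DESeq2 and 0 to 4 with a day left out, and day 6 calls were 1 and 8 with DESeq2. The lists under other scalings, filters, halved counts and no Rn45s or day term were added after seeing the data, and none moved the count over all lists together by over 1.5 times; single lists were not counted under them. Of 84 ratios of single libraries, 0 moved beyond their interval with a prior count of 0.5. The labels give no replicate numbers, and day as a term pairs the treatments within a day. With 1 library per group, no single day can be tested, and Slc8a2 and Atp2b2 are limited by their counts.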

Other observations

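Atp2a3, which encodes SERCA3, another calcium pump of the reticulum, was chosen after its values were seen. It lies at chr11:72961169-72993043 and had 80, 272 and 88 counts under vehicle and 142, 4852 and 734 under GSK126, by day. GSK126 on day 6 thus stood far above the other 5 libraries. The log2 ratio of GSK126 to vehicle was 0.83 (0.27 to 1.44) on day 3, 4.198 (3.96 to 4.47) on day 6 and 3.07 (2.64 to 3.58) on day 10. The fitted difference was 2.88 (SE 0.65, n = 3 pairs) and was not called by edgeR. Because the gene was picked from these same values, the fit is given as a description and nothing is read from the missing call. The vehicle island list had an island over its start base with a ratio of 2.76, and the GSK126 list had none there, the nearest lying 0.369 kb away. Both lists had an island that begins 4.43 kb into Atp2a3, with ratios of 2.93 in vehicle and 2.22 with GSK126. Within 5 kb of the start, each list had 2 islands. Each list rests on 1 ChIP library, and the difference at the start base was not tested.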
